A study of Mus musculus with 18 samples.

Results

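Prl2c2 (ENSMUSG00000079092) and Prl2c3 (ENSMUSG00000056457) are 2 proliferin genes of the mouse, and they were followed through RANKL-driven osteoclast formation as 2 of the 34745 genes in a count table. Both were found by their symbols. Prl2c2 was selected on its rise from day 0 to day 1 in the libraries labelled wild type (WT), and Prl2c3 was taken with it as a near copy, so levels in those libraries are given as a description with no test. Only the difference between the labels on day 3 was tested with WT libraries, and it is not free of this selection. Bone marrow-derived macrophages (BMDMs) came from Zmat1 knockout mice (labelled Zmat1 ko, here KO) and wild-type littermates on a C57BL/6 background, a few weeks of age per the methods of the study. The knockout was global. All cells were grown in the growth factor M-CSF. The day 0 groups had M-CSF alone, and the other groups had M-CSF with the osteoclast-inducing cytokine RANKL for 1 or 3 days. The 18 libraries made 6 groups of 3 (label by day). The labels do not say whether libraries of a group came from separate mice, so p-values measure only the spread between these libraries, which may be technical.

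Total counts ran from 13789775 to 17559958 per library. Zmat1 itself did not follow the labels, with 49 to 99 counts in the 9 libraries labelled KO and 32 to 91 in the 9 labelled WT, so every direction below is one between libraries labelled KO and WT. Titles were written with a double hyphen for 5 libraries (WT day 0 library 1, KO day 0 library 2, KO day 1 libraries 1 and 2, and 1 of the WT day 1 libraries) and with a single hyphen for the other 13. WT day 1 held 2 libraries numbered 1, and the one titled in the second style is called library 1 (double hyphen). Macrophage markers were present throughout, with Lyz2 at 3410 to 50200, Adgre1 at 224 to 1930 and Csf1r at 1170 to 7290 CPM (counts scaled to library size with TMM factors, the usual trimmed-mean correction). Of 10 trophoblast markers, the cells in which proliferins are best known, 8 had no count in any library and the highest count of the others was 7.

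Proliferins are secreted glycoproteins of the prolactin family, also called mitogen-regulated proteins. They were found in growth factor-stimulated mouse fibroblasts and are made in quantity by the trophoblast giant cells of the placenta, where they act on blood vessel growth. They carry mannose 6-phosphate and bind the cation-independent mannose 6-phosphate receptor, Igf2r. Their genes lie on mouse chromosome 13, as do other prolactin-family genes. Glucocorticoids and the transcription factor AP-1 are textbook regulators of a proliferin promoter.

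In the GRCm38 coordinates of the table, Prl2c2 lay at chromosome 13, 12996132 to 13005383, and Prl2c3 at 12790822 to 12800078, both on the minus strand. Each had 5 exons in the annotated main transcript. The coding sequences, 675 bases in both, differed at 3 positions (99.6% identical), and the whole transcripts of 842 and 857 bases differed at 4 of the 842 aligned bases. Counted from the first base of the start codon, with the Prl2c2 base first, the coding differences were T14C in exon 1, C200A in exon 2 and T319G in exon 4. These sites are shown because, within the coding sequence, only reads that cross one of them can tell the copies apart. The stretches are coding exon sequence of the minus strand from the GENCODE vM21 transcripts (GRCm38), written 5′ to 3′ with the differing base in capitals.
Prl2c2, chr13:13005296-13005326, exon 1: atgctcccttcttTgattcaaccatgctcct
Prl2c3, chr13:12799982-12800012, exon 1: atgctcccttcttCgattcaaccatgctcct
Prl2c2, chr13:13002134-13002171, exon 2: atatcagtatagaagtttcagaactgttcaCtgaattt
Prl2c3, chr13:12796831-12796868, exon 2: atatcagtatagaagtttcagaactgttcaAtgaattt
Prl2c2, chr13:12997434-12997467, exon 4: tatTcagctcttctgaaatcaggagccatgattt
Prl2c3, chr13:12792141-12792174, exon 4: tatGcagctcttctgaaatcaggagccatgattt

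Windows of the Prl2c2 transcript were compared with the transcripts of the other Prl2c genes to see how much of it a read could assign. Of 793 windows of 50 bases, 89.5% occurred unchanged in another copy (80.1% in Prl2c3, 18.5% in Prl2c5 and 13.2% in Prl2c1). Of windows of 100 bases 66.4% did, and of windows of 150 bases 50.9%, all of the last in Prl2c3. Prl2c3 windows were shared at 78.6%, 62.3% and 49.9% for the same lengths. Outside the Prl2c genes, 50-base windows of either copy occurred in 1 annotated gene, the pseudogene Gm7040, which is not a line of the table. The read length and the treatment of reads that fit both copies were not given in the sources used here, so the counts of each copy are uncertain, and each tested comparison is also given with the counts of both summed.

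Prl2c2 was at or near 0 before RANKL and was counted in every library that had received it. In the libraries labelled WT its counts were 0, 0 and 0 on day 0. On day 1 they were 141 (library 1), 31 (library 1, double hyphen) and 81 (library 2). On day 3 they were 86, 75 and 4 in libraries 1 to 3. All 3 day 1 libraries thus lay above the day 0 libraries, while on day 3 library 3 stood far below the other 2. In CPM, day 1 measured 5.55 ± 2.95 and day 3 3.02 ± 2.42 (SD, n = 3 each). With 3 counts put in each day 0 library as the floor that a count of 0 allows, Prl2c2 was at least 24-fold higher on day 1 and at least 13.1-fold higher on day 3. The bounds were 17.6-fold without WT day 1 library 1 and 10-fold without WT day 3 library 1. WT day 3 library 3, with 4 counts, lay near the floor itself. Floors and intervals here cover counting error only, since reads copied by PCR are not independent molecules.

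In the libraries labelled KO the Prl2c2 counts were 0, 2 and 0 on day 0 (libraries 1 to 3). On day 1 they were 25, 52 and 15. On day 3 they were 6, 2 and 3. Day 1 was therefore the high day in this label too, with each of its libraries above every KO library of the other days. The group means were 0.0513 ± 0.0888, 2.12 ± 1.41 and 0.217 ± 0.124 CPM (SD, n = 3 each). The largest day 1 value, 3.72 CPM in library 2, and that of library 1, 1.60 CPM, came from double-hyphen libraries, and library 3 of the single-hyphen style measured 1.04 CPM.

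**Figure D1:**
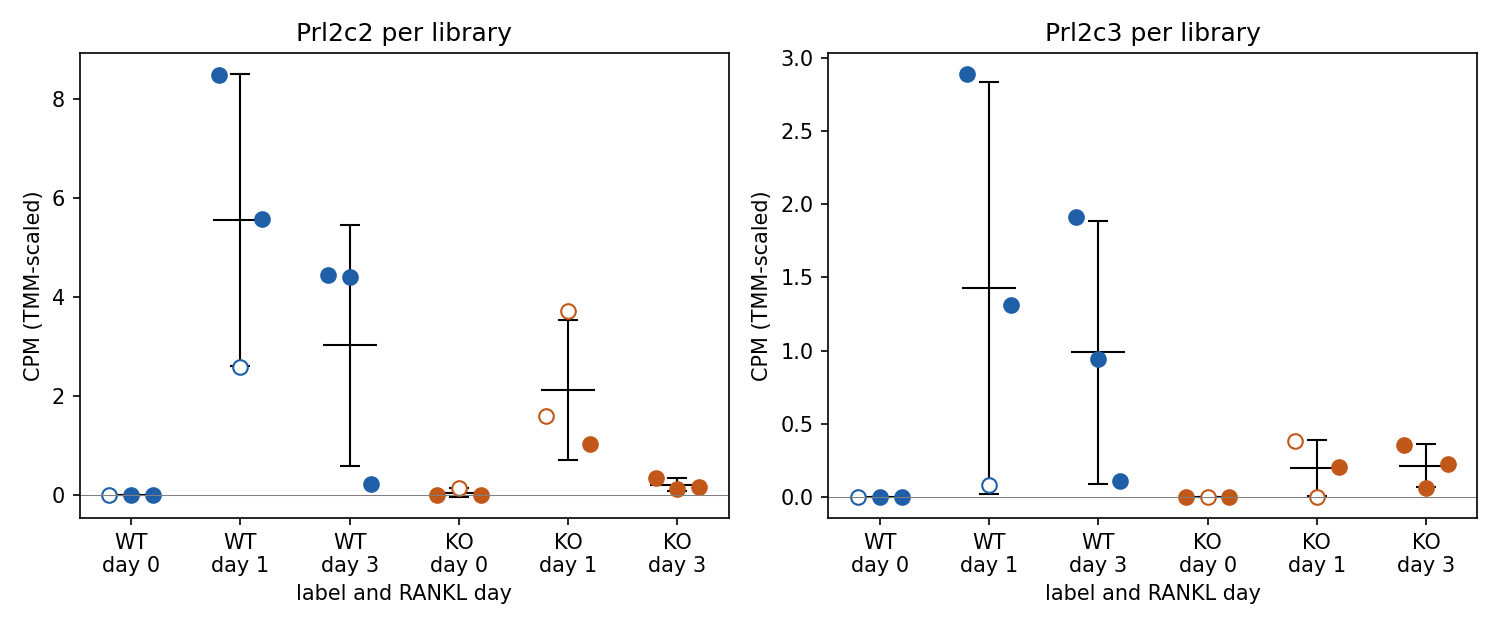
Levels of Prl2c2 (left) and Prl2c3 (right) in CPM for each library by label and RANKL day, where each circle is 1 library, open circles are libraries with a double hyphen in the title, and horizontal bars are the group mean with SD (n = 3). Prl2c2 peaked on day 1 in both labels, at 5.55 CPM under the WT label and 2.12 CPM under the KO label, and WT day 3 library 3 lay at 0.224 CPM beside 4.44 and 4.41 CPM.

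Prl2c3 had lower counts and was at 0 in all 6 day 0 libraries. In the libraries labelled WT it had 48, 1 (double hyphen) and 19 counts on day 1. On day 3 it had 37, 16 and 2. In the libraries labelled KO it had 6, 0 and 3 counts on day 1 and 6, 1 and 4 on day 3. The WT libraries that were highest for Prl2c2 were highest for Prl2c3 as well, and the KO libraries of days 1 and 3 stayed at 6 counts or fewer. The means were 1.43 ± 1.41 (WT day 1), 0.988 ± 0.900 (WT day 3), 0.198 ± 0.193 (KO day 1) and 0.215 ± 0.148 CPM (KO day 3, SD, n = 3 each). Against the same floor, Prl2c3 of the WT label was at least 6.17-fold higher on day 1 and at least 4.27-fold higher on day 3 than on day 0. One library carried each bound, which was 3.01-fold without WT day 1 library 1 and 2.28-fold without WT day 3 library 1, and the lowest library of each day (1 and 2 counts) lay under the floor itself. Per transcript length, the deposited FPKM of Prl2c2 and Prl2c3 averaged 6.57 and 1.71 on WT day 1, 4.2 and 1.35 on WT day 3, 2.31 and 0.219 on KO day 1, and 0.297 and 0.289 on KO day 3.

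Ordered by mean CPM, Prl2c2 was highest in WT day 1, then WT day 3, KO day 1, KO day 3, KO day 0 and WT day 0. Of these neighbours, KO day 1 and KO day 3 did not overlap, and every other neighbouring pair did. For Prl2c3 the order was WT day 1, WT day 3, KO day 3, KO day 1 and then both day 0 groups at 0, and each neighbouring pair overlapped or held a shared value of 0. In bulk RNA, fewer cells that express a gene and less RNA per cell cannot be told apart.

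The first tested question was whether RANKL changed the proliferins within the KO label. Its libraries were not part of the rise on which Prl2c2 was selected, though earlier results of these data were known. From day 0 to day 1 Prl2c2 went from 2 counts in all to 92, a ratio of 42.7 per sequenced count (exact 95% counting interval 11.5 to 358). The fitted log2 fold change was 5.21 (SE 1.28, unadjusted p = 0.00137, adjusted p = 0.199, edgeR), which depends on the prior count because the day 0 group is near 0. Both day 0 counts came from library 2, and without that library the fitted value was 8.0 (adjusted p = 0.203), against 4.53 without KO day 1 library 2. With both copies summed it was 5.33 (adjusted p = 0.196). Prl2c2 did not pass the threshold, an adjusted p under 0.05 over 14241 genes, and neither did Prl2c3 (4.66, adjusted p = 0.554), whose day 0 group is at 0. That comparison called 0.0211% of the genes tested. The DESeq2 Wald test gave an adjusted p of 0.0167 for Prl2c2 (log2 fold change 5.43) and 0.399 for Prl2c3. With only 1 single-hyphen KO library on day 1, the comparison within 1 title style rests on that library.

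From day 1 to day 3 Prl2c2 fell in the KO label, from 2.12 to 0.217 CPM. This was a log2 fold change of -3.24 (SE 1.02, adjusted p = 0.0319, edgeR), a 9.77-fold lower mean with no overlap between the groups. Prl2c2 was thus 1 called gene of 2, in a comparison that called 28% of all genes tested (15.5% lower and 12.5% higher). The call did not outlast most changes of library. It was lost without KO day 3 library 2 (-2.97, adjusted p = 0.114) and without 4 of the other 5 libraries, when the title style was a covariate (-3.05, adjusted p = 0.128), and when both copies were summed (-2.40, adjusted p = 0.0797). Prl2c3 gave 0.10 (SE 1.40, adjusted p = 0.967) in the same comparison and turned to -1.25 with the title style as a covariate.

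Markers of cell types were compared from KO day 1 to day 3, where 12.5% of all genes tested were called higher and 15.5% lower. All 10 macrophage markers were called lower (median log2 fold change -1.91, against 0.00216 over all genes tested). Their summed level was 40970 to 63540 CPM on day 1 and 9653 to 19460 CPM on day 3. Of 10 osteoclast markers 9 were called higher (median 5.71), from 599 to 788 CPM up to 8293 to 17730 CPM. Of 26 stromal genes tested 6 were called higher (median 2.12), from 3941 to 11950 CPM up to 28890 to 40570 CPM. Of 8 neutrophil genes 1 was called lower (median -2.0), near the share over all genes. Their summed level went from 1464 to 3162 CPM down to 97.6 to 1147 CPM. Prl2c2 fell as macrophage markers fell and as stromal and osteoclast genes rose. The part of cell composition in its change was not tested.

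From day 0 to day 3 the KO libraries showed no called change of either gene. Prl2c2 gave a log2 fold change of 1.96 (SE 1.48, adjusted p = 0.302) and Prl2c3 4.76 (SE 2.39, adjusted p = 0.131), while the comparison called 42.5% of the genes tested (20.2% higher and 22.3% lower). The counts behind these values are 2 against 11 for Prl2c2 and 0 against 11 for Prl2c3, summed over 3 libraries a group. Both day 0 counts were in library 2, and without it the Prl2c2 value was 4.79 (adjusted p = 0.159), so 1 library sets its size. With both copies summed it was 2.93 (adjusted p = 0.113).

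The second tested question was whether the labels differed on day 3. Prl2c2 was selected on a rise under the WT label, so its p-values here are not free of that selection. Prl2c2 averaged 0.217 CPM under the KO label, against 3.02 CPM under the WT label, a 13.9-fold lower mean. On the log2 scale the difference was -3.75 (SE 1.02, unadjusted p = 0.00292, adjusted p = 0.249, edgeR) and did not pass, in a comparison that called 0.14% of the genes tested. The groups overlapped, because WT library 3 had 4 counts and KO library 1 had 6. The DESeq2 Wald test gave -3.80 with an adjusted p of 0.0231. Prl2c3 was 4.60-fold lower in the mean (log2 fold change -2.16, SE 1.25, adjusted p = 0.578). It passed the filter on low counts only through libraries labelled WT, with 48 and 19 counts on day 1 and 37 and 16 on day 3. Its difference between the labels therefore cannot be read as a test free of that choice. Its groups also overlapped, and without WT day 3 library 1 the value was -1.25 (adjusted p = 0.884). Both copies summed gave -3.19 (adjusted p = 0.299). The summed levels of the stromal, neutrophil, endothelial, B cell and mast cell or basophil lists did not overlap between the same groups. No tested gene of these lists was called, and the share of all genes without overlap was not counted. The summed stromal level was 28890 to 40570 CPM under the KO label and 15210 to 20330 CPM under the WT label. The summed neutrophil level was 97.6 to 1147 against 35.8 to 66.9 CPM, and the endothelial level 32.7 to 97.8 against 13.7 to 24.3 CPM, again without overlap. The B cell level was 11.62 to 60.7 against 10.23 to 10.55 CPM. The mast cell or basophil level was 3.609 to 10.76 against 1.91 to 3.422 CPM. The macrophage level (9653 to 19460 against 7050 to 14860 CPM) and the osteoclast level (8293 to 17730 against 16040 to 23380 CPM) overlapped. The part of cell composition in the Prl2c2 difference was not tested. On day 1, where the libraries labelled WT had served to choose the gene, the KO mean of Prl2c2 was 2.62-fold lower, and KO library 2 (3.72 CPM) lay above the double-hyphen WT library (2.58 CPM).

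The division of counts between the copies was not the same in all libraries. In the single-hyphen libraries of days 1 and 3, Prl2c3 took 136 of 549 counts of both genes, or 24.8% (exact Clopper-Pearson 95% interval 21.2 to 28.6%). In the 3 double-hyphen libraries, all of day 1, it took 7 of 115, or 6.09% (2.48 to 12.1%). On day 1 alone the single-hyphen libraries gave 22.8% (18.2 to 27.9%), but those counts were mostly of the WT label (289 of 307), while 83 of the 115 double-hyphen counts were of the KO label. These intervals pool reads over libraries and leave out the spread between them. Library by library, Prl2c3 took 25.4% in WT day 1 library 1, 19.0% in WT day 1 library 2 and 3.12% in WT day 1 library 1 (double hyphen). In KO day 1 it took 19.4%, 0% and 16.7% in libraries 1 to 3, where 0 of 52 counts allows up to 6.85%. KO day 1 library 1, a double-hyphen library, thus lay with the single-hyphen ones. On KO day 3 the shares were 50%, 33.3% and 57.1%, but over only 12, 3 and 7 counts. The part of the title style, or of reads that fit both copies, in these shares was not tested.

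**Figure D2:**
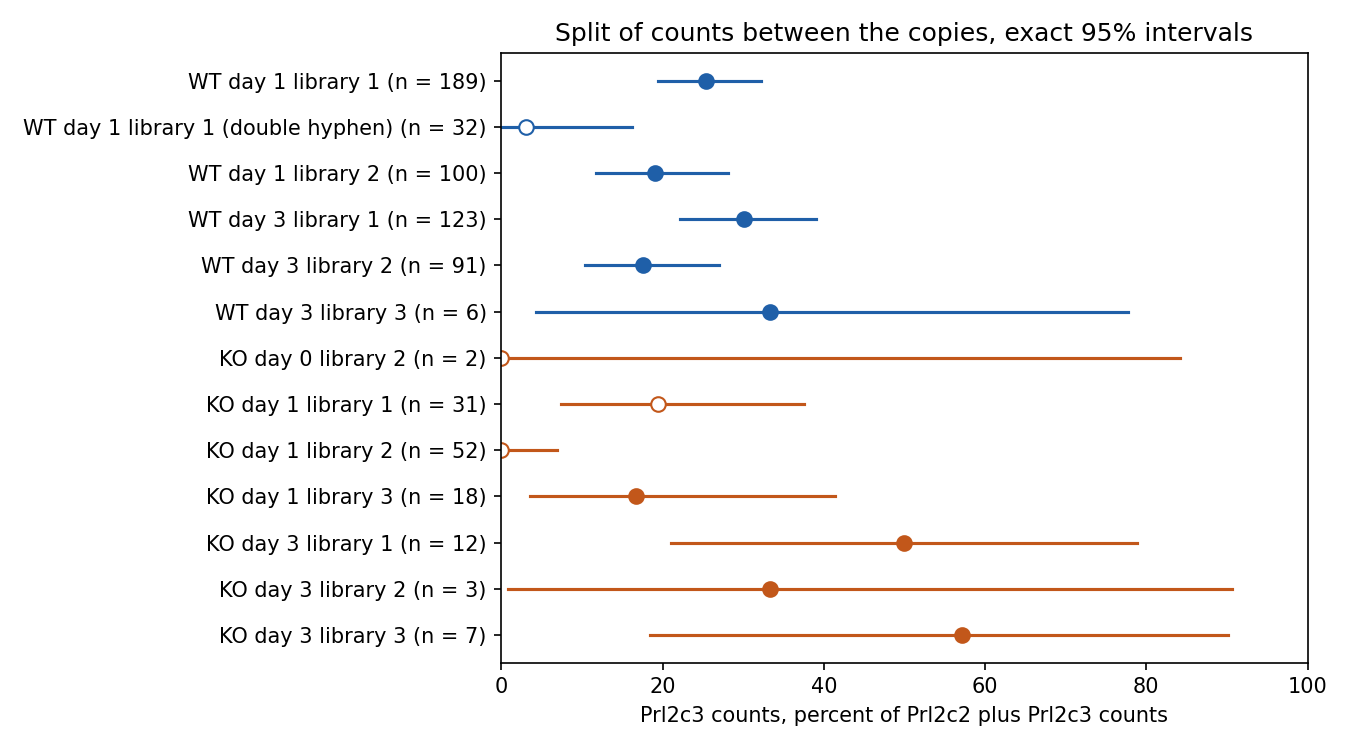
Share of Prl2c3 in the counts of Prl2c2 plus Prl2c3 for each library with any such count, in percent on a linear axis, with exact 95% intervals as lines, n the summed count, blue for libraries labelled WT, orange for KO, and open circles for double-hyphen titles. WT day 1 library 1 (double hyphen) at 3.12% and KO day 1 library 2 at 0% lie lowest among libraries with more than 12 counts, and WT day 3 library 1 at 30.1% lies highest among them.

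The remaining copies had few counts. Prl2c5, on the plus strand at chromosome 13, 13182715 to 13191923, with a coding sequence 97.0% identical to that of Prl2c2, had 35 counts in 6 libraries. Its counts were 11, 0 (double hyphen) and 6 on WT day 1 and 12, 1 and 0 on WT day 3, at most 3 in any library labelled KO and 0 in every day 0 library. They were highest where Prl2c2 was, but did not pass the filter on low counts. Prl2c1 had 1 count in the whole series. Of 27 genes of the prolactin family in the table, the prolactin receptor Prlr included, 22 had no count in any library, and the 2 proliferins described here were the only ones that passed the filter.

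Over all 18 libraries the level of Prl2c2 had almost no linear relation to that of stromal genes. The stromal level, the mean log2 CPM of 26 stromal genes such as Col1a1, gave a Pearson r of 0.0367 and a Spearman rho of 0.0114 with Prl2c2 over the 18 libraries, and an r of -0.0468 without the 2 libraries farthest from the median stromal level. Within groups, as deviations from the group means, r was -0.0569, and over the 13 single-hyphen libraries -0.0492. Over the 12 libraries of days 1 and 3, without the day 0 libraries at or near 0, r was -0.688 and rho -0.734, an inverse relation. These are descriptions without a test, and the libraries share groups, days and depth. Single stromal genes ran from r = -0.254 to 0.175 with Prl2c2, and the closest, Alpl, the alkaline phosphatase of osteoblasts, ranked 4382 among 14240 genes. For Prl2c3 the r values with the stromal level were 0.245 over all libraries, 0.111 without the 2 farthest, 0.254 within groups, -0.00567 over the single-hyphen libraries and -0.115 over days 1 and 3, and its closest stromal gene, Col1a1, ranked 3431.

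Single libraries are given as examples, picked after their values were seen. Those of WT days 0 and 1 had served to choose Prl2c2. WT day 0 library 3 had a summed stromal level of 7016 CPM and no Prl2c2 count, whereas WT day 1 library 1 (double hyphen) had 442 CPM and 31 counts. The stromal level was highest in KO day 3, at 28890 to 40570 CPM, where Prl2c2 had 6 counts or fewer. In WT day 3 library 3 Prl2c2 stood at 4 counts with a stromal level of 16480 CPM, between the 15210 and 20330 CPM of the libraries with 86 and 75 counts.

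**Figure D3:**
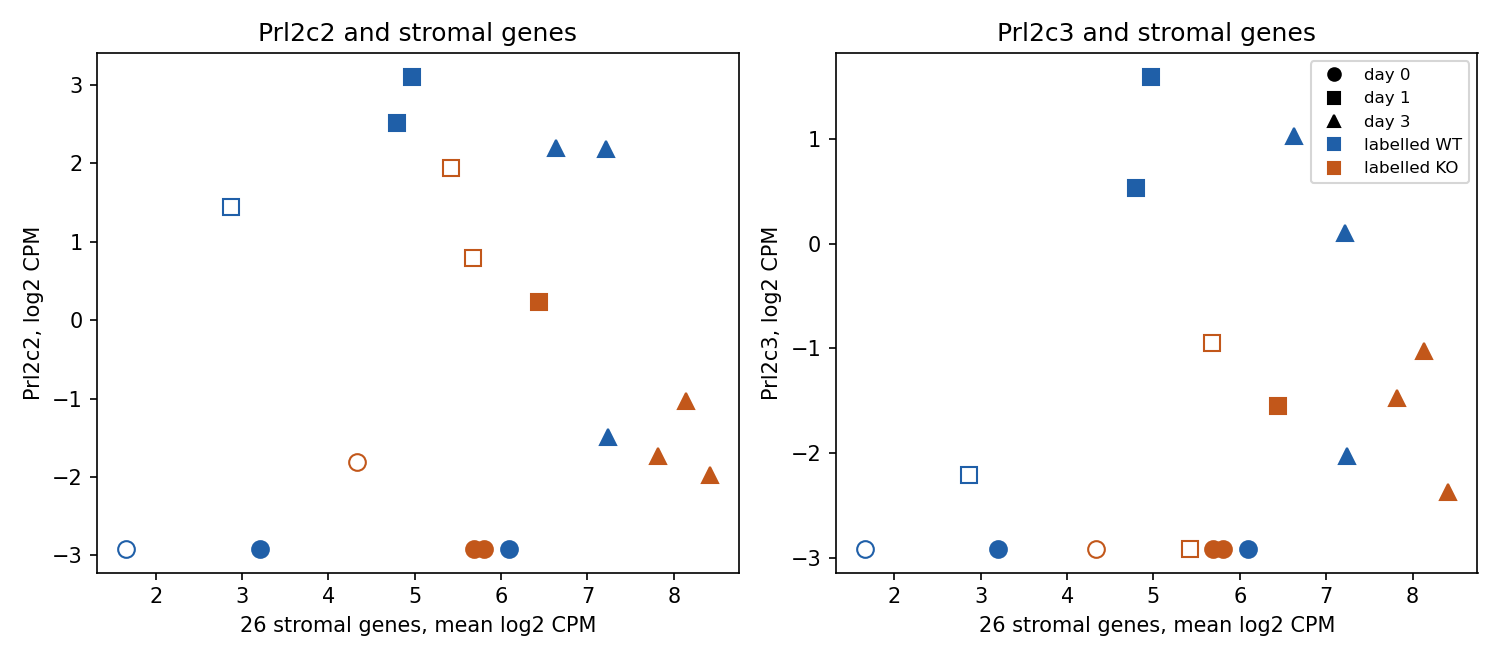
Log2 CPM of Prl2c2 (left) and Prl2c3 (right) against the mean log2 CPM of 26 stromal genes, 1 point per library (n = 18), with circles for day 0, squares for day 1, triangles for day 3, blue for libraries labelled WT, orange for KO and open symbols for double-hyphen titles. Day 0 libraries lie at the bottom over a wide range of stromal levels, and the r values over all libraries were 0.0367 and 0.245.

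The genes whose pattern was most like that of Prl2c2, by Pearson r of log2 CPM over the 18 libraries, were Champ1 (0.891), a chromosome alignment protein, Txnrd1 (0.864), a thioredoxin reductase, and Nqo1 (0.861), a quinone reductase. Dagla (0.842), Ythdf2 (0.840), Dock4 (0.831), Esd (0.828), Gbe1 (0.816), Txn1 (0.810) and RP23-380L19.3 (0.809) followed. Champ1 moved over a narrow range, from 29.8 CPM in WT day 0 library 2 to 42.0 CPM in WT day 1 library 1. Nqo1 had 15.1, 18.6 and 24.3 CPM on KO day 1 and 9.77, 6.36 and 12.2 CPM on KO day 3. Nqo1 was thus lower on day 3 in each library than in any of day 1. It was named because it follows Prl2c2 over these libraries, so its values are a description with no test. Within groups the r with Prl2c2 was 0.721 for Champ1, 0.542 for Txnrd1 and 0.698 for Nqo1. Depth and day are shared by all these points.

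For Prl2c3 the closest genes were Uba1 (0.878), the ubiquitin-activating enzyme, Prpf31 (0.869), a splicing factor, and Cep78 (0.848), a centrosomal protein, followed by Txn1 (0.837), Cyfip1 (0.834), Cnbp (0.829), Rnf183 (0.828), Nup93 (0.824), Ttf2 (0.823) and Ppp1r12b (0.822). Txn1, thioredoxin, was on both lists. Prl2c2 and Prl2c3 had an r of 0.785 with each other, 0.967 over the 13 single-hyphen libraries and 0.615 within groups. Prl2c3 ranked 24 among the genes most like Prl2c2, and Prl2c2 ranked 31 among those most like Prl2c3, although both share most of their sequence.

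**Figure D4:**
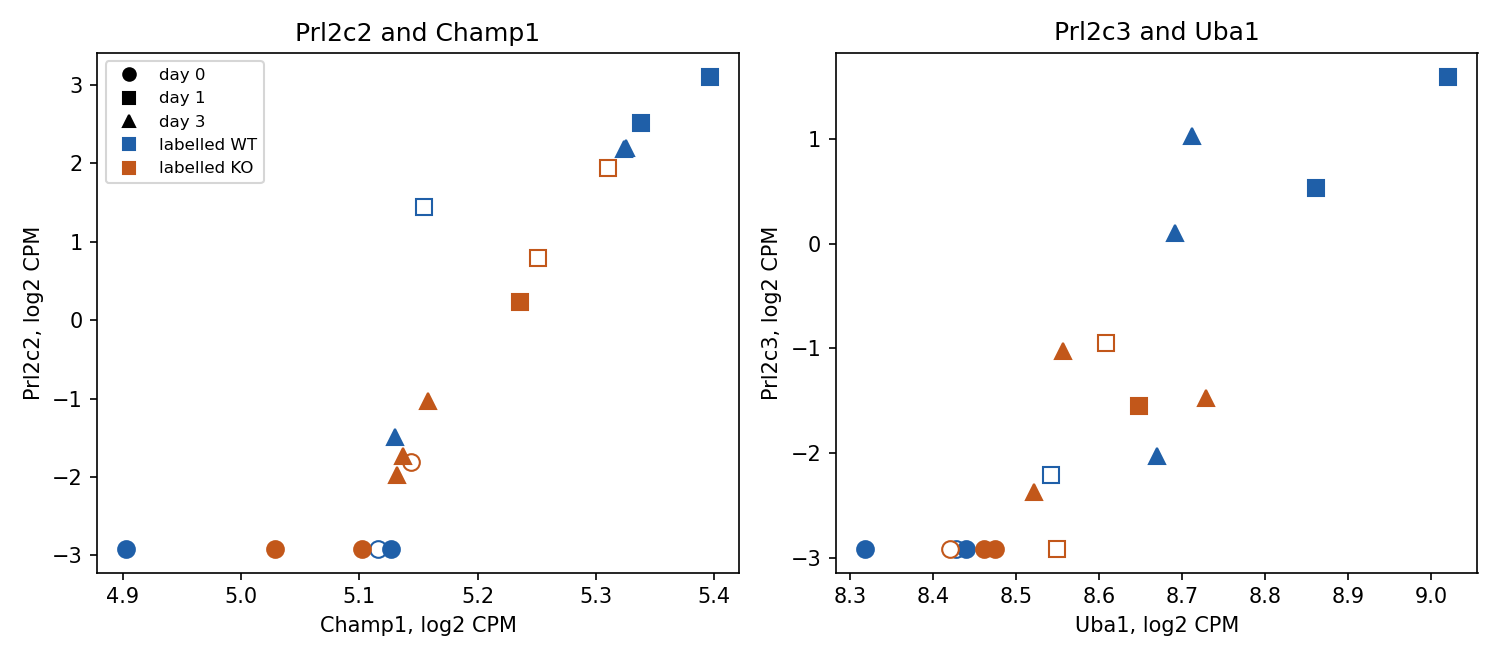
Log2 CPM of Prl2c2 against Champ1 (left) and of Prl2c3 against Uba1 (right), the gene of highest Pearson r with each, 1 point per library (n = 18), with circles for day 0, squares for day 1, triangles for day 3, blue for libraries labelled WT, orange for KO and open symbols for double-hyphen titles. Libraries without counts of the proliferin lie along the bottom, and r was 0.891 and 0.878.

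The proliferin receptor was expressed at all times and was higher on day 3 of RANKL in the KO label. Igf2r, which carries mannose 6-phosphate proteins to lysosomes and takes up IGF2, measured 126, 231 and 134 CPM on KO day 0. On day 1 it had 274, 295 and 336 CPM, and on day 3 384, 386 and 394 CPM. The days did not overlap in this label. Igf2r rose from day 0 to day 3 with a log2 fold change of 1.24 (SE 0.253, adjusted p = 0.00165, edgeR), while from day 0 to day 1, the interval in which Prl2c2 had its highest counts, it was 0.88 (SE 0.251, adjusted p = 0.268). In the libraries labelled WT the means were 168 ± 51.5, 451 ± 117 and 530 ± 58.7 CPM (SD, n = 3). Under both labels the larger part of the fitted Igf2r rise to day 3 fell between days 0 and 1. The log2 fold change was 0.88 of 1.24 under the KO label and 1.43 of 1.66 under the WT label, given as a description. Per transcript length, on KO day 3, the deposited FPKM averaged 45.3 for Igf2r and 0.297 for Prl2c2.

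A list of mannose 6-phosphate and IGF receptors and their ligands held 6 genes (Igf2r, M6pr, Igf1r, Igf1, Igf2 and Tgfb1). In the KO label from day 0 to day 3, 2 were called higher and 2 lower, against 20.2% and 22.3% of all genes tested. Igf1, the growth factor IGF1, fell from 665 ± 59.8 to 219 ± 101 CPM (log2 fold change -1.60, adjusted p = 0.00354), and Tgfb1, whose latent protein binds the same receptor, from 324 ± 112 to 139 ± 11.5 CPM (-1.23, adjusted p = 0.0146). M6pr, the cation-dependent mannose 6-phosphate receptor, had 253 ± 35.0 and 307 ± 35.5 CPM (0.28, adjusted p = 0.168). Between KO days 1 and 3, over which Prl2c2 fell, 2 of the 6 were called higher and 2 lower (12.5% and 15.5% of all genes tested). Igf2r gave 0.36 there (SE 0.249, adjusted p = 0.283, edgeR).

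**Figure D5:**
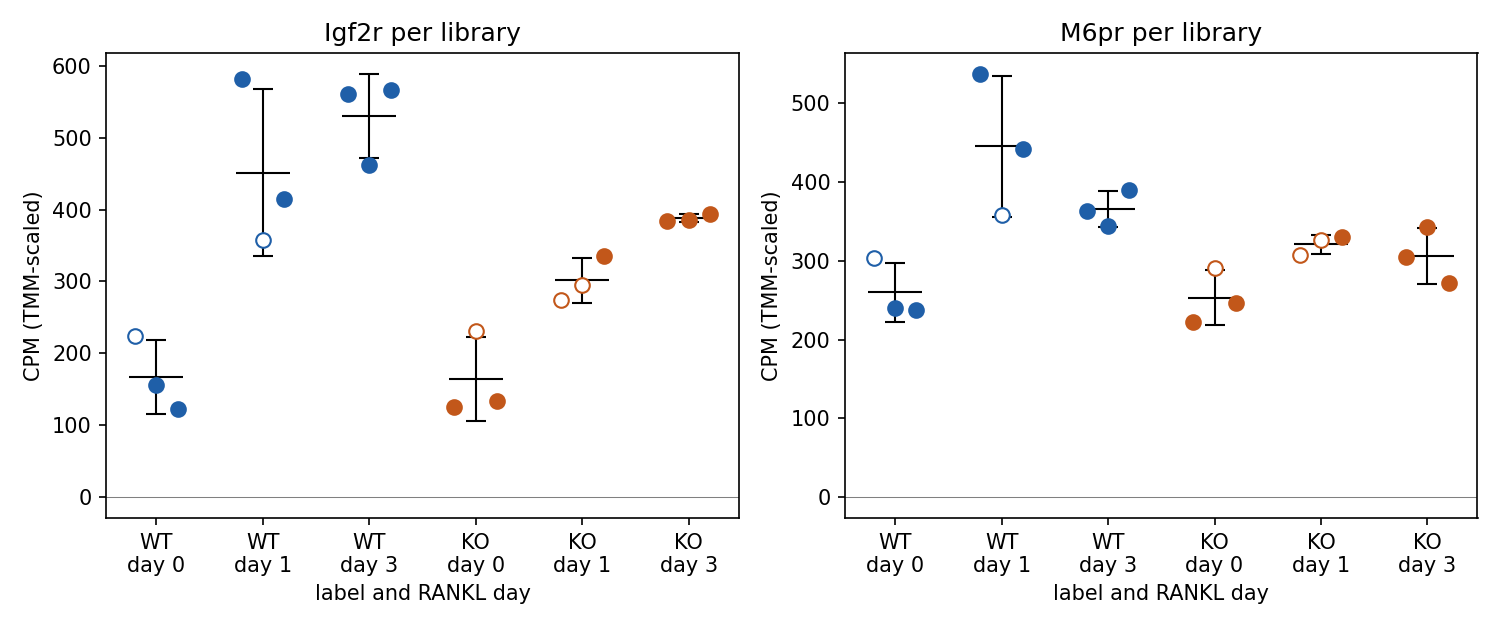
Levels of Igf2r (left) and M6pr (right), the mannose 6-phosphate receptors, in CPM for each library by label and RANKL day, where each circle is 1 library, open circles are double-hyphen titles and bars are the group mean with SD (n = 3). Igf2r went from 164 CPM on day 0 to 388 CPM on day 3 under the KO label and from 168 to 530 CPM under the WT label.

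Of 10 AP-1 genes, 4 were called higher and 3 lower from KO day 1 to day 3 (median log2 fold change 0.33), against 12.5% and 15.5% of all genes tested. Fosl2, a FOS-family subunit, rose by 2.65 on the log2 scale (SE 0.291, adjusted p = 6.38e-05, edgeR), from 78.5 ± 23.0 to 492 ± 99.4 CPM. Junb rose by 0.59 (SE 0.207, adjusted p = 0.0467), from 117 ± 14.7 to 175 ± 40.9 CPM, while Jund (-0.18, adjusted p = 0.71) and Jun (0.23, adjusted p = 0.539) did not pass. From day 0 to day 1, when Prl2c2 went from 2 counts to 92, the same genes gave 0.34 (Fosl2), 0.07 (Junb), 0.28 (Jund) and -0.03 (Jun), with adjusted p-values of 0.716, 0.941, 0.813 and 0.987.

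Of 7 glucocorticoid response genes, 3 were called lower from KO day 1 to day 3 (median log2 fold change of the 7 -0.59, against 0.00216 over all genes tested). These were Tsc22d3, the glucocorticoid-induced leucine zipper (-0.82, adjusted p = 0.033), Per1, a clock gene (-0.59, adjusted p = 0.034), and Sgk1, a glucocorticoid-induced kinase (-0.93, adjusted p = 0.0387, edgeR). They are named because they passed, and their direction is that of 15.5% of all genes tested. The other genes of the list were not called and went both ways. Fkbp5 (0.955, adjusted p = 0.0981) and Dusp1 (0.556, adjusted p = 0.283) were higher. Nr3c1 (-0.55, adjusted p = 0.138) and Zbtb16 (-1.19, adjusted p = 0.234) were lower (edgeR).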

How the data were processed

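RNA sequencing of 18 BMDM libraries was analysed from 1 deposited table. The authors extracted RNA with an RNeasy Plus kit and made libraries with a SMARTer mRNA kit. The deposited counts are whole reads per gene, and the deposited FPKM (scaled by length and depth) were made by the authors with StringTie and Ballgown. The submitters' processing notes name StringTie, GRCm38.p4 and mm10. The aligner and the counting program were not given in the sources used here. No test was run on FPKM.

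The counts were filtered, scaled and tested with edgeR 4.0.16 (filterByExpr, TMM, glmQLFit and glmQLFTest) under R 4.3.3. All 18 libraries were fitted as 6 groups, leaving 14241 genes, with a common dispersion of 0.09451. P-values are 2-sided and Benjamini-Hochberg adjusted over these genes, and a gene was called under 0.05. SE came from the F statistic. Log2 CPM for correlations used a prior count of 2. The fit was checked on simulated counts. Depth was 13789775 to 17559958 counts per library, and a group with 0 counts was given 3 per library as its floor.

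The members, gene lists, comparisons and alternatives were chosen with earlier results of these data known. The genes named were both members, up to 4 genes of a list in order of mean CPM, and the 10 genes most correlated with each member. The stromal examples, the glucocorticoid response genes, Nqo1 among the correlated genes and the cell type markers were picked out after their values were seen. Transcripts came from GENCODE vM21 (GRCm38) and were aligned with Biopython 1.88. Figures were drawn with matplotlib 3.10.9. Promoter and protein sequences were not used here.

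Alternatives were no filter, at least 5 CPM in 3 libraries, DESeq2 size factors, the DESeq2 1.42.0 Wald test, title style as a covariate, summed copies, a replicate block, fits of the compared libraries alone, each library left out, and, chosen after seeing the data, single-hyphen libraries only. Deviations of same-number KO libraries from their group means correlated at 0.13 to 0.398 between days 0 and 3 and at 0.156 to 0.34 between days 1 and 3, so the numbers pair these libraries by a hint in the data. Between days 0 and 1 the correlations were 0.0536, 0.501 and 0.598 for libraries 1 to 3, and between labels on day 3 all 3 were below 0. From day 0 to day 1 the title style changed for library 1 and stayed the same for libraries 2 and 3. Number and title style therefore cannot be told apart there. The labels do not say what a number shares.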

Additional observations from a re-analysis of the deposited data

How the results depend on the processing

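Of 110 values under alternative settings, 96 kept direction and side of the threshold. Most belong to results that were not called in the main fit, so staying uncalled was likely for them. The fits of summed copies are counted under both genes. The only called result, the Prl2c2 fall from KO day 1 to day 3, kept its call in 7 of 15 alternatives. The Prl2c2 fall from KO day 1 to day 3 (log2 fold change -3.24) was not called with the title style as a covariate (-3.05), with summed copies (-2.40) or in single-hyphen libraries only (-2.19, chosen after seeing the data). With 1 library left out it ran from -3.78 to -2.55 and was lost in 5 of 6 fits (leaving out KO day 1 library 1 or 2 gave an adjusted p of 0.0599 or 0.128, and leaving out library 1, 2 or 3 of KO day 3 gave 0.0586, 0.114 or 0.0887). It held with the replicate block (-3.06, adjusted p = 0.0184), which changed no call. The DESeq2 Wald test called Prl2c2 from KO day 0 to day 1 (5.43) and between labels on day 3 (-3.80), which edgeR did not. Prl2c3 from KO day 1 to day 3 (0.10) turned to -1.25 with the title style and to -2.40 with summed copies, and ran from -0.45 to 1.00 with 1 library left out, below 0 without KO day 1 library 2 (-0.43) or KO day 3 library 1 (-0.45). The cause of these changes was not tested. With a low count filter of 5 CPM in 3 libraries Prl2c3 had no value, nor did Prl2c3 in any fit of the compared libraries alone, or Prl2c2 there from KO day 0 to day 3 and between labels on day 3. Depth limits both genes: the KO day 3 group held 11 counts of each.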
